A study of Mus musculus with 12 samples.

Results

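Glucocorticoid-responsive genes were followed in mouse liver across a normal diet, a high-fat diet and a high-fat diet with a citrus extract. The set held 7 genes that were listed by name: the glucocorticoid receptor gene Nr3c1 and its responsive genes Fkbp5, Tsc22d3, Sgk1, Errfi1, Zbtb16 and Tat. All 7 had a probe, 1 each, among 19085 genes with a named probe on the array. They were chosen by name, on the intensities of the extract group against the group with the same diet alone, as genes rising with the extract. That comparison is therefore given for them as a description with no test. In these data 5 of the 7 had a higher mean with the extract and 4 had all extract arrays above all arrays of the same diet alone. Nr3c1 and Tsc22d3 did not follow that description.

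The study compared liver RNA of male C57BL/6 mice, 3 arrays in each of 4 groups, from 24 mice kept 6 to a group and fasted for 12 h. ND mice had a normal diet (12.3% fat) for 24 weeks. HFD16 and HFD24 mice had a high-fat diet (36.1% fat, 2% added cholesterol) for 16 and 24 weeks, and these 3 groups were given saline. PTFC mice, on the same high-fat diet, received pure total flavonoids from Citrus at 50 mg per kg per day by stomach tube for 18 weeks, after 6 weeks of diet alone. PTFC is an extract of several compounds, so no result belongs to 1 flavonoid. Mice were 23 to 25 weeks old in HFD16 and 30 to 33 weeks old in the other groups, so diet length, age and day of collection cannot be told apart where HFD16 is compared. The labels do not say that the 3 replicates came from separate animals, so p-values cover no more than the scatter among the arrays, part of which may be technical. No corticosterone level and no hour of collection was used here.

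Glucocorticoids are adrenal steroid hormones that cross the cell membrane and bind a receptor held in the cytoplasm by HSP90 and its partner chaperones. The bound receptor enters the nucleus, where it raises some genes through paired binding sites in DNA and lowers many inflammatory genes. In the liver the hormone, which rises in fasting, stress and before waking, supports glucose production from amino acids. FKBP5 is a chaperone partner that lowers the receptor's affinity for hormone, and its gene is itself a receptor target, which closes a feedback loop.

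The site to which the receptor binds as a dimer has the letters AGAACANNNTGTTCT, and reads the same on both strands. It was searched, together with 1 arm of it, TGTTCT, on both strands, in the 250 bases before each transcript start of the RefSeq promoter table (GRCm38.p6). The table held 13 such windows for 5 of the 7 genes. Nr3c1 and Zbtb16 had no entry. Of the 7 genes only Sgk1 had the full site, in 1 of its 6 windows, and it is printed because that match is rare. Over all 32851 windows the full site was found in 0.00913%, or 3 windows. The single arm was found in 16.1% of all windows and in 4 of the 13, 3 of Sgk1 and 1 of Tsc22d3. Arms within the full site are counted in both. The Tsc22d3 window is shown as an example of a lone arm, and the Tat window as that of a gene with neither. Capitals mark the full sites and the arms, and each sequence runs 5′ to 3′ on the strand of the gene.
Sgk1, chr10:21993640-21993889, plus strand: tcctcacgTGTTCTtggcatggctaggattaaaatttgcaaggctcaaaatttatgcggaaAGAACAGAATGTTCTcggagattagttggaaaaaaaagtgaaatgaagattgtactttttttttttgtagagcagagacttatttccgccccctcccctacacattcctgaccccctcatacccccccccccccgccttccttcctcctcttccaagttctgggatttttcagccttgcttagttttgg
Tsc22d3, chrX:140600523-140600772, minus strand: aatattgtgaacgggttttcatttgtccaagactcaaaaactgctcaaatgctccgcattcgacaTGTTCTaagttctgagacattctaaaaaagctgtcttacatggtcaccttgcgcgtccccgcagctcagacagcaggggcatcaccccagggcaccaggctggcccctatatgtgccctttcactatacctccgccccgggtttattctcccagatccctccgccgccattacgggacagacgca
Tat, chr8:109990186-109990435, plus strand: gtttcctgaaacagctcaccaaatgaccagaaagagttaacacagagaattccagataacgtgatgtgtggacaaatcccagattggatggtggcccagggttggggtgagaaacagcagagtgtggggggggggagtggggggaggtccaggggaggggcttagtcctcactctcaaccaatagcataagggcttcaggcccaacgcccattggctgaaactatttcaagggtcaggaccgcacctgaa
The full site of Sgk1, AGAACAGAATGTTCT, began 189 bases before the start of that transcript. The looser core GNACANNNTGTNC was present in 0.387% of all windows and, among the 13, in that Sgk1 window only. A match is a string of letters and not a measured binding site, and its absence covers only these windows.

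Array medians lay between 248.9 and 338.4 in HFD24, between 277.7 and 330.1 in HFD16, between 300.3 and 379.4 in ND and between 368.9 and 407.8 in PTFC, in deposited intensity. The arrays were therefore put on a common scale before any difference was taken. Differences below are on the normalized log2(intensity + 1) scale, with the standard error (SE) of a limma fit over all 26423 probes, and n = 3 arrays per group. Deposited intensities of the single arrays are given in the order of their replicate numbers. A probe passed where its adjusted p (Benjamini-Hochberg, all probes) was below 0.05. The summed intensity of 12 hepatocyte markers lay between 3163853 and 3385657 on all 12 arrays and none was at 0, as the liver label implies.

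**Figure D1:**
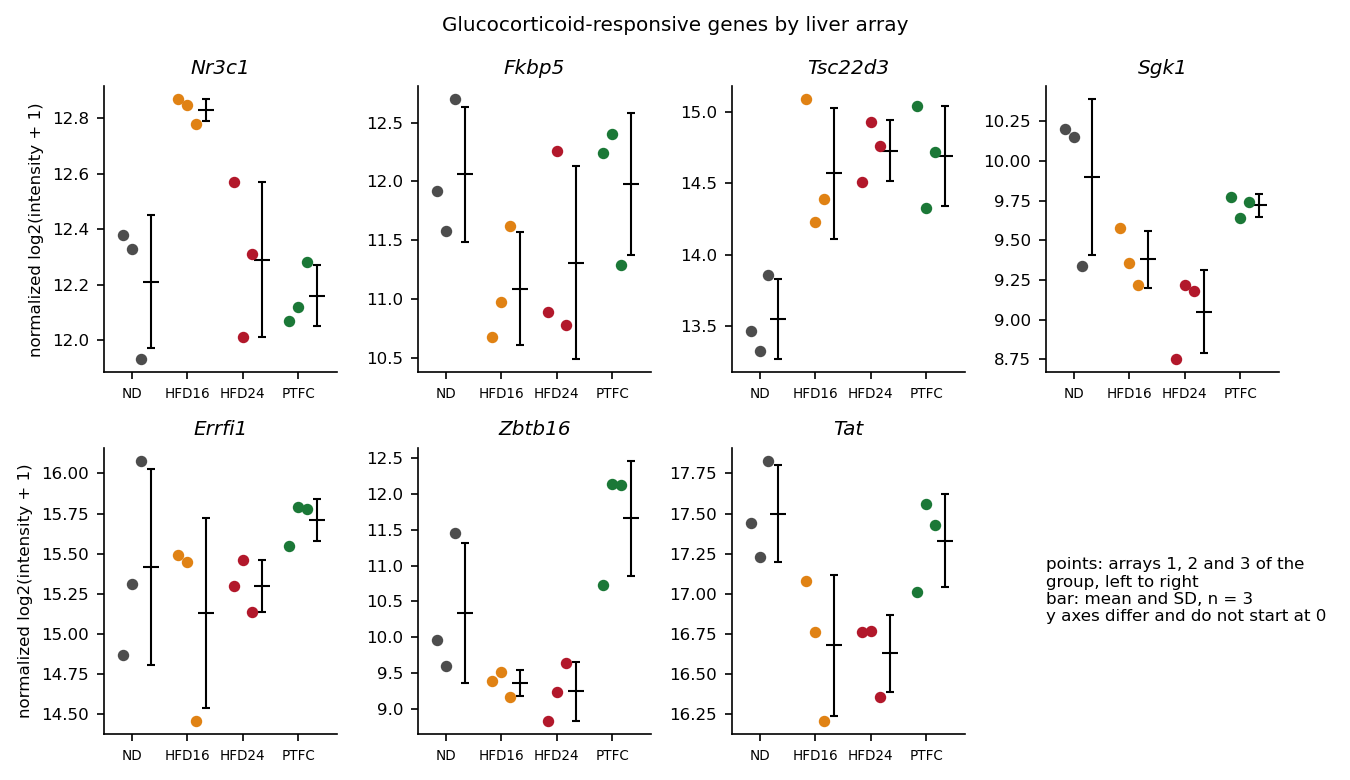
Normalized log2(intensity + 1) of the 7 genes on each of the 12 arrays (y axis, which differs between panels and does not start at 0) by group (x axis), with the mean and SD of 3 arrays as a bar. The 3 PTFC points of Zbtb16, Sgk1, Errfi1 and Tat lie above the 3 HFD24 points, while those of Nr3c1, Fkbp5 and Tsc22d3 overlap them.

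Zbtb16, which encodes the zinc finger transcription factor PLZF and responds strongly to glucocorticoids in many tissues, had the largest difference of the 7 with the extract. Its intensity was 1806, 4777 and 4533 in PTFC and 357, 608 and 828 in HFD24. In HFD16 it was 584, 763 and 507, and in ND 1037, 824 and 2666. Every PTFC array was above every array of either high-fat diet group, and the first PTFC array was the lowest of its group, below the third ND array. The mean was 5.34-fold higher in PTFC than in HFD24 (log2 2.42 ± 0.44, SE). HFD24 and HFD16 means were 1.09 and 0.97 log2 units below ND, but 1 ND array carried much of that gap. Without the third ND array the difference from ND was -0.54 in HFD24, -0.42 in HFD16 and 1.88 in PTFC, against -1.09, -0.97 and 1.32 with it.

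Tat encodes tyrosine aminotransferase, the liver enzyme that begins tyrosine breakdown and a classical marker of glucocorticoid action. The probe read 195414, 159442 and 252846 in ND, and 133625, 199874 and 196655 in PTFC. It read 131332, 103274 and 72293 in HFD16, and 111631, 104733 and 74659 in HFD24. PTFC overlapped ND, and both high-fat diet groups without the extract lay wholly below ND. The difference was 0.70 ± 0.22 log2 for PTFC from HFD24, -0.17 ± 0.22 for PTFC from ND and -0.87 ± 0.22 for HFD24 from ND.

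Sgk1 encodes a kinase that regulates ion channels and transporters and is induced quickly by both corticosteroid receptors. HFD24 arrays read 336, 598 and 591. PTFC arrays read 973, 849 and 973, a narrow range that lay above all HFD24 and HFD16 arrays. HFD16 arrays read 668, 672 and 524, and ND arrays 1216, 1179 and 580. The third ND array again stood away from the other two, here on the low side. PTFC was 1.58-fold above HFD24 (log2 0.66 ± 0.23), and HFD24 was 0.85 ± 0.23 below ND, or 1.13 below without the third ND array.

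Errfi1 encodes MIG6, which binds and inhibits the EGF receptor and its relatives. Its intensity was 47904, 62118 and 60032 in PTFC and 37939, 43658 and 35247 in HFD24, with no overlap after normalization. It was 45119, 45908 and 22071 in HFD16 and 31130, 41357 and 69010 in ND. The ND arrays spanned more than the range of PTFC and HFD24 together. PTFC was 1.33-fold above HFD24 (log2 0.41 ± 0.29). That difference was 0.17 under median scaling. PTFC differed from ND by 0.29 ± 0.29, with a range of 0.01 without the first to 0.62 without the third ND array. HFD24 differed from ND by -0.12 ± 0.29, with a range of -0.40 without the first to 0.21 without the third ND array, so its sign turned.

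Fkbp5 encodes the chaperone partner of the feedback loop, and its normalized values overlapped between all groups, though the deposited ones of HFD16 lay just below those of ND. Intensities were 4798, 5735 and 2639 in PTFC and 1751, 4796 and 1835 in HFD24. They were 3876, 3095 and 6527 in ND and 1493, 2101 and 3041 in HFD16. The second HFD24 array and the third PTFC array crossed into the range of the other group. The PTFC mean was 0.67 ± 0.42 log2 above HFD24, and the difference ran from 0.40 without the third to 1.14 without the second HFD24 array, and was 0.38 under median scaling. ND and PTFC means were nearly alike, at 12.06 ± 0.57 and 11.98 ± 0.60 log2 (SD, n = 3).

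Tsc22d3 encodes GILZ, a leucine zipper protein that carries part of the anti-inflammatory action of glucocorticoids and is also made by immune cells. ND arrays read 11446, 10206 and 14663. HFD16 arrays read 34672, 19189 and 21049, HFD24 arrays 22307, 30133 and 27250, and PTFC arrays 33883, 21929 and 28027. All 9 arrays of the high-fat diet lay above all ND arrays, and the extract group overlapped both groups with the diet alone. PTFC differed from HFD24 by -0.04 ± 0.24 log2 and from ND by 1.14 ± 0.24, and HFD24 differed from ND by 1.18 ± 0.24.

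Nr3c1, the receptor gene, read 7151, 7587 and 6928 in HFD16, above all 9 other arrays. It read 5311, 5153 and 3808 in ND, 5730, 4039 and 5231 in HFD24, and 4277, 4752 and 5121 in PTFC. ND, HFD24 and PTFC overlapped, with means of 12.21 ± 0.24, 12.29 ± 0.28 and 12.16 ± 0.11 log2 (SD, n = 3). PTFC differed from HFD24 by -0.14 ± 0.18, or by -0.44 where arrays were scaled to a common median. The receptor gene thus had no higher mean with the extract under either scaling.

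**Figure D2:**
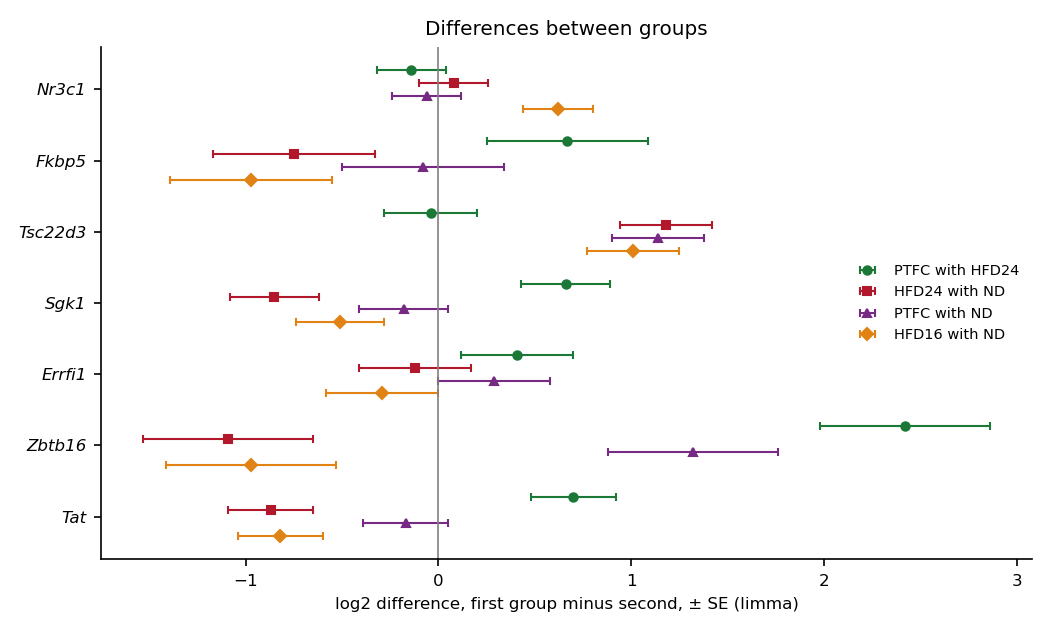
Log2 difference (x axis, first group minus second) with its SE from limma for the 7 genes (y axis) in 4 comparisons. Zbtb16 lies at 2.42 for PTFC with HFD24, Tsc22d3 lies near 1 in the 3 comparisons with ND, and Nr3c1 stands away from 0 in HFD16 with ND alone.

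Over the 7 genes the median difference of PTFC from HFD24 was 0.66, against 0.02 over all probes. The arrays did not overlap for 4 of the 7, all higher in PTFC, where 16.8% of all probes had every PTFC array above every HFD24 array and 30.9% did not overlap in either direction. By limma 5.78% of all probes passed here. Nothing is read from that count, since this comparison chose the genes. The other comparisons share arrays with it: HFD24 with ND shares the HFD24 arrays, and PTFC with ND the PTFC arrays. Their values are therefore also descriptions. For HFD24 with ND, 1 of the 7 was wholly higher (13.9% of all probes) and 2 wholly lower (18.6%). For PTFC with ND, 1 of the 7, Tsc22d3, was wholly higher (9% of all probes), and the other 6 overlapped.

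The order of the group means differed between genes. ND and PTFC were the upper pair in Zbtb16, Tat, Sgk1, Errfi1 and Fkbp5, and overlapped each other in all 5. Zbtb16 and Errfi1 had PTFC on top, and Tat, Sgk1 and Fkbp5 had ND. HFD16 and HFD24, the lower pair, also overlapped each other in all 5. In Tsc22d3 the 3 high-fat diet groups overlapped above ND, and in Nr3c1 the 3 other groups overlapped below HFD16.

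The comparison of HFD16 with ND took its difference between arrays outside the comparison that chose the genes, and here the 7 were tested. The normalization and the spread behind the p-values drew on the arrays of all groups, those of the choosing comparison among them. The genes were also chosen with earlier results of these data known, so the test is not fully independent of their choice. Nr3c1 and Tsc22d3 rose and Tat fell, 3 of 7, where 16.3% of all probes passed. Tsc22d3 was 2.02-fold higher in HFD16 (log2 1.01 ± 0.24, limma adjusted p = 0.0149). Nr3c1 was 1.54-fold higher (log2 0.62 ± 0.18, limma adjusted p = 0.0331). Tat was 1.76-fold lower (log2 -0.82 ± 0.22, limma adjusted p = 0.0256). The 3 HFD16 arrays did not overlap the 3 ND arrays in these genes, nor in Zbtb16. That made 2 of the 7 wholly higher and 2 wholly lower, where 15.1% of all probes were wholly higher, 19.5% wholly lower and 34.6% either. Fkbp5 at -0.97 ± 0.42, Zbtb16 at -0.97 ± 0.44, Sgk1 at -0.51 ± 0.23 and Errfi1 at -0.29 ± 0.29 did not pass, with limma adjusted p = 0.127, 0.146, 0.135 and 0.531.

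Each of these calls was lost without certain single arrays. Nr3c1 lost its call without any 1 of the 6 ND and HFD16 arrays (lowest limma adjusted p = 0.0613, highest 0.0825), and over all settings its adjusted p ran from 0.0194 to 0.0825. Tat lost it without the first (0.0709) or the third ND array (0.0675), without the second (0.0532) or the third HFD16 array (0.104) and under median scaling (0.0913), all as limma adjusted p, which ran from 0.00913 to 0.104. Tsc22d3 lost it without the first (0.0591) or second ND array (0.0583), and its adjusted p ran from 0.0102 to 0.0591. Sgk1 gained a call without the third ND array (log2 -0.79, limma adjusted p = 0.0112), and its adjusted p ran from 0.0112 to 0.4.

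The third ND array stood apart in this set. It was the highest of the 3 ND arrays in 5 of the 7 genes, namely Fkbp5, Tsc22d3, Errfi1, Zbtb16 and Tat, and the lowest in Nr3c1 and Sgk1. Over all probes it was the highest in 38.7% and the lowest in 43.6%. An extreme place among the ND arrays was therefore common for it, and the set differed in how often it was the highest. Among 30 other genes known to be induced through the receptor it was the highest in 19 and the lowest in 5.

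Whether the 7 genes varied together among arrays of 1 group was tested on deviations from the group means over the 12 arrays, which the choice of genes did not use. Of the 21 pairs, 12 had a positive Pearson correlation, and none passed after adjustment (2 had an unadjusted exact permutation p under 0.05). Errfi1 and Tat had the closest agreement in direction (r = 0.80, exact permutation p = 0.0131, adjusted p = 0.138; Spearman rho = 0.86, exact permutation p = 0.00309, adjusted p = 0.0648). Without the 2 arrays farthest from the median of Errfi1, r was 0.65. Nr3c1 and Fkbp5 went opposite ways (r = -0.83, exact permutation p = 0.0131, adjusted p = 0.138; rho = -0.78, exact permutation p = 0.0285, adjusted p = 0.3), with r = -0.65 without the 2 arrays farthest from the median of Nr3c1. That r was -0.42 where arrays were scaled to a common median. Fkbp5 and Tsc22d3, both receptor targets, had r = 0.13 (rho = 0.11, exact permutation p = 0.691 and 0.759, adjusted p = 0.854 and 0.876).

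**Figure D3:**
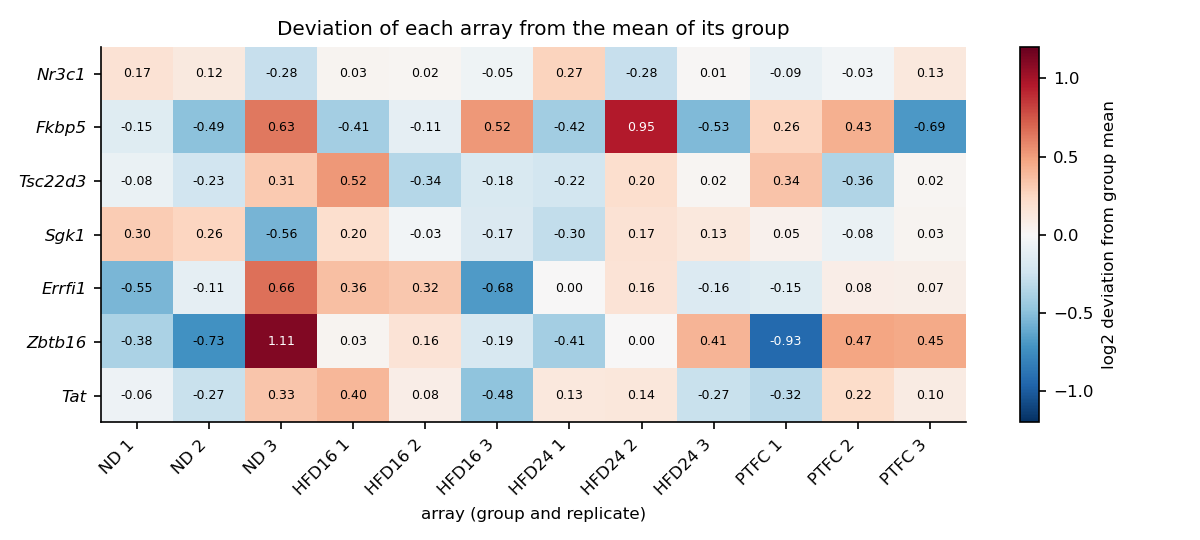
Deviation of each array (x axis) from the mean of its group for the 7 genes (y axis), in log2 units, as colour and number. In the third ND array Zbtb16 lies at 1.11, Errfi1 at 0.66 and Fkbp5 at 0.63 above the ND mean, and Sgk1 at -0.56, while Fkbp5 is at 0.95 in the second HFD24 array.

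The genes nearest to the set in profile were found from the mean of the 7 standardized profiles, by the root mean square difference over the 12 arrays among 19085 genes. Those arrays include the PTFC and HFD24 arrays on which the 7 were chosen, so near genes tend to share that difference. The neighbours are therefore a description only. Tedc2, a centriole component, was nearest at 0.38 SD units. Lpin1, a phosphatidate phosphatase and coactivator that glucocorticoids and fasting induce, followed at 0.40, then Tomm40, a mitochondrial import channel, at 0.43, Tbl3 at 0.44 and Sema3f, a semaphorin, at 0.48. Of the 7 genes themselves Zbtb16 lay at 0.49, Tat at 0.53 and Errfi1 at 0.66, Fkbp5 at 0.93 and Sgk1 at 0.95. Tsc22d3 at 1.35 and Nr3c1 at 1.65 were the farthest, so the mean profile described them least.

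Other known targets of the receptor showed a mixed picture with the extract. Of 31 further induced targets 30 had a probe, and 5 rose and 1 fell in PTFC against HFD24, with 3.07% of all probes called higher and 2.71% lower. Lpin1 rose 3.23-fold (log2 1.69 ± 0.26, limma adjusted p = 0.0112), and its other probe gave 1.99. Igfbp1, which binds insulin-like growth factors and rises in fasting, rose 3.27-fold (log2 1.71 ± 0.36, limma adjusted p = 0.0235). Irs2, an insulin receptor substrate, rose 2.63-fold (log2 1.40 ± 0.24, limma adjusted p = 0.0168). Pdk4 at 1.63 and Angptl4 at 0.61, both lipid-fuel genes of fasting named here after their values were seen, were the others. All 5 also respond to fasting or insulin, and Pdk4 and Angptl4 to fatty acids through PPAR receptors. The member that fell was Lcn2, an acute phase protein that inflammation also induces (log2 -2.39 ± 0.61, limma adjusted p = 0.0398). Per1, Klf9, Dusp1 and Map3k6, targets in many tissues that were named after their values were seen, gave -0.06 ± 0.25, -0.02 ± 0.18, 0.51 ± 0.32 and -0.01 ± 0.33 and did not pass. The median of the 30 was 0.16, against 0.02 over all probes.

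Single arrays decided these counts. Without the third PTFC array none of the 30 passed, with 8 of all 26423 probes past the test. The number that rose was 1 without the first HFD24 array, 2 without the second PTFC array and 3 without the second or the third HFD24 or the first PTFC array. It was 3 under median scaling and 8 on the deposited scale. Lpin1 lost its call without the third PTFC array alone (limma adjusted p = 0.0582), and Irs2 without that or the first HFD24 array, with 0.0949 at most. Igfbp1 lost it without either of those or the second PTFC array, also at 0.0949 at most. Lcn2 lost it in 8 of the 19 settings, with 0.192 at most.

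**Figure D4:**
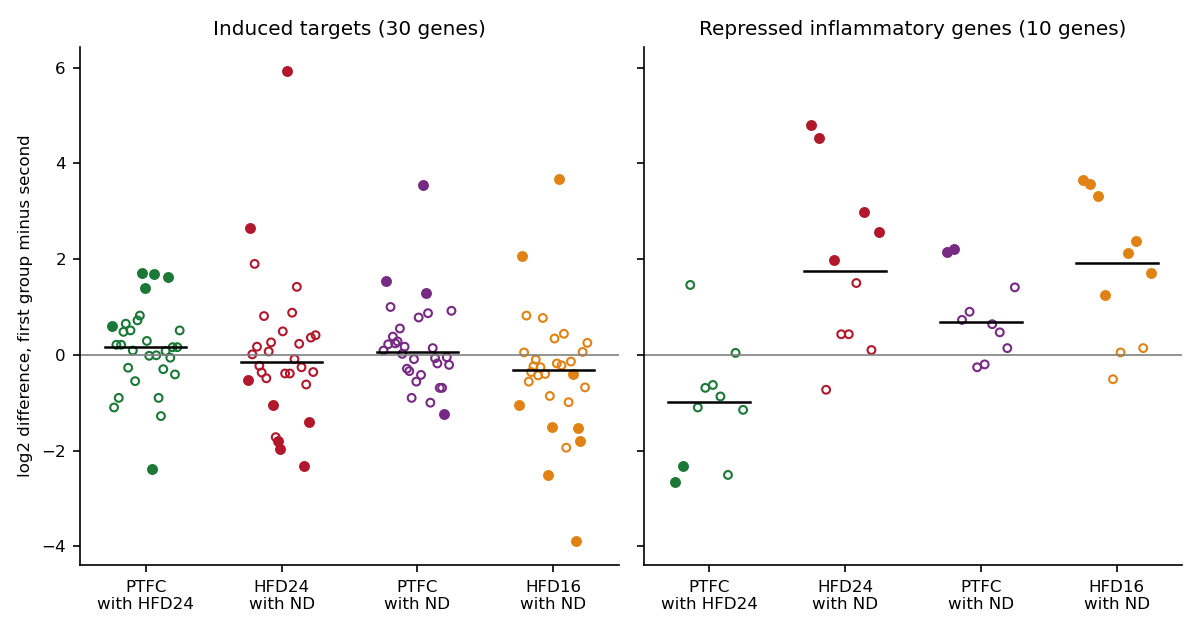
Log2 difference (y axis, first group minus second) of each gene of 2 lists in 4 comparisons (x axis), with filled points past the limma test and a line at the list's median. Among the 30 induced targets 5 filled points lie above 0 and 1 below in PTFC with HFD24, and the medians of the 10 repressed inflammatory genes are -0.98, 1.75, 0.68 and 1.91 from left to right.

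Against ND, induced targets moved in both directions in the groups with the diet alone. In HFD24 2 rose and 6 fell, with 8.5% of all probes higher and 7.96% lower. The 2 that rose were Lcn2 (log2 5.94 ± 0.61) and Anxa1, which encodes the anti-inflammatory annexin A1 (log2 2.65 ± 0.34). Those with the smallest p among the 6 that fell were Irs2 at -1.96 ± 0.24, Ppargc1a, a coactivator of gluconeogenesis, at -1.40 ± 0.25 and Pdk4 at -2.32 ± 0.40. In HFD16 2 rose, again Lcn2 at 3.67 ± 0.61 and Anxa1 at 2.06 ± 0.34, and 7 fell, with 8.64% and 7.69% of all probes called. Pdk4 at -3.90 ± 0.40, Ppargc1a at -1.80 ± 0.25 and Angptl4 at -1.05 ± 0.15 had the smallest p of those. Without the third ND array, 7 induced targets rose and 6 fell in HFD24, and 5 rose and 7 fell in HFD16, so the larger number in HFD24 turned from those that fell to those that rose. These 2 comparisons share the ND arrays.

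In PTFC against ND 3 of the 30 rose and 1 fell, with 0.727% and 1.03% of all probes called. Lcn2 at 3.54 ± 0.61 (limma adjusted p = 0.0146), Lpin1 at 1.30 ± 0.26 (limma adjusted p = 0.029) and Anxa1 at 1.55 ± 0.34 (limma adjusted p = 0.0389) rose, and Ppargc1a at -1.24 ± 0.25 (limma adjusted p = 0.0285) fell. The number that rose was 0 without the first ND or the second PTFC array, 1 without the second ND, the first PTFC or the third PTFC array and under median scaling, and 6 without the third ND array. The call of Lpin1 was lost without the first or second ND array or any 1 PTFC array and under median scaling, with limma adjusted p = 0.128 at most. That of Lcn2 was lost without the first ND or the second PTFC array (0.0684 at most), and that of Anxa1 in 10 of the 19 settings (0.173 at most). The call of Ppargc1a was lost without the first ND array or any 1 PTFC array, and on the deposited scale, with limma adjusted p = 0.125 at most.

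Of 8 genes that carry and clear the hormone, 6 had a probe, among them Hsd11b1, which regenerates active hormone in the liver, and Serpina6, its carrier in blood. None passed by limma in PTFC with HFD24, HFD24 with ND or PTFC with ND (1, 2 and 0 at an unadjusted p under 0.05). In HFD16 with ND 3 of the 6 had an unadjusted p under 0.05, and 1 fell, Hsd11b2, which inactivates the hormone (log2 -0.80 ± 0.22, limma adjusted p = 0.0259), a call lost without the first or second ND or the second or the third HFD16 array (0.116 at most). Serpina6 at 0.91 ± 0.32 and Abcb1a, an efflux pump named after its values were seen, at 0.68 ± 0.24 had all HFD16 arrays above all ND arrays and did not pass (limma adjusted p = 0.0667 for Serpina6, 0.0641 for Abcb1a). Hsd11b1 differed from ND by -0.28 ± 0.17 in PTFC (limma adjusted p = 0.482). The mean of Hsd11b2 was 7.01 log2 in HFD16 and 7.81 in ND, and that of Hsd11b1 was 8.48 in PTFC and 8.76 in ND. Signal over background is unknown for both probes, so neither result is read as a change in hormone handling.

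Chaperones and coregulators of the receptor had 13 of 18 genes with a probe. By the brightest probe of each gene, none passed by limma in PTFC with HFD24 or in HFD16 with ND (2 and 5 at an unadjusted p under 0.05). A dimmer probe of Ncoa3, a coactivator named after its values were seen, rose in HFD16 (log2 0.96 ± 0.19, limma adjusted p = 0.00722) and in HFD24 (0.66 ± 0.19, limma adjusted p = 0.0318) against ND, while its brightest probe gave 0.41 ± 0.21 and 0.22 ± 0.21 and did not pass. Fkbp4, which encodes another chaperone partner of the receptor, gave -0.40 ± 0.18 in PTFC with HFD24 and 0.50 ± 0.18 in HFD16 with ND (limma adjusted p = 0.188 and 0.0709). Crebbp, an acetyltransferase, rose in HFD24 against ND (log2 0.84 ± 0.22, limma adjusted p = 0.0222) and lost the call without the first or second ND or the first or the third HFD24 array, under median scaling and on the deposited scale (0.16 at most). Smarca4, a chromatin remodeller, rose in PTFC against ND (log2 0.66 ± 0.15, limma adjusted p = 0.0428), while its dimmer probe gave -0.13, and the call was lost in 12 of the 19 settings, each ND or PTFC array left out among them (0.194 at most). That dimmer probe passed in the other direction in HFD16 (log2 -0.80 ± 0.21, limma adjusted p = 0.023) and HFD24 (log2 -0.68 ± 0.21, limma adjusted p = 0.0414) against ND, so the probes of Smarca4 disagree.

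Relatives of the 7 genes were measured for all 10 listed. None passed by limma in PTFC with HFD24 or PTFC with ND (4 and 2 at an unadjusted p under 0.05). Tsc22d1, of the family of Tsc22d3, rose in HFD16 against ND (log2 1.53 ± 0.42, limma adjusted p = 0.026), and lost the call without the second or the third ND array or any 1 HFD16 array (0.0707 at most). In HFD24 against ND Tsc22d4 rose by 0.70 ± 0.23 (limma adjusted p = 0.0485), a call that held in 3 of 12 fits with 1 array left out and was also lost on the deposited scale, with a pseudocount of 32 and with no trend in the prior, and Zbtb7b fell by 0.79 (limma adjusted p = 0.00832), a call that held in all 12. The ligands and receptors on which the product of Errfi1 acts, 9 of 10 with a probe, had no call by limma in any of the 4 comparisons (1 in PTFC with HFD24, 2 in HFD24 with ND, 2 in PTFC with ND and 1 in HFD16 with ND at an unadjusted p under 0.05). Egfr gave -1.09 ± 0.45 in PTFC with ND (limma adjusted p = 0.253), and Hbegf -0.69 ± 0.23 in HFD16 with ND (0.0507).

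Of 10 inflammatory genes that glucocorticoids are known to lower, 2 fell in PTFC against HFD24, Ccl2, which draws monocytes (log2 -2.66 ± 0.36, limma adjusted p = 0.00707), and Cxcl1, which draws neutrophils (log2 -2.32 ± 0.30, limma adjusted p = 0.00707). In 8 of the 10 all PTFC arrays lay below all HFD24 arrays, where 14.1% of all probes did. The count that fell was 0 without the third PTFC array, 5 without the first HFD16 array and 5 under median scaling. Against ND 5 rose in HFD24 (8.5% of all probes), 7 in HFD16 (8.64%) and 2 in PTFC (0.727%), with Vcam1, a leukocyte adhesion molecule, at 2.56 ± 0.43 in HFD24 and 1.70 ± 0.43 in HFD16. Among the 7 were 2 dim probes, named after their values were seen. Cxcl10 had means of 4.04 log2 in HFD16, 0.73 in ND and 0.0 in HFD24, at the floor of the scale. Ptgs2, which also rose in HFD24, had 6.25 in HFD16 and 3.87 in ND. The 7 in HFD16 were 3 without the first ND array and 2 without the second ND or the second or the third HFD16 array, and the 2 in PTFC were 1 without the first ND, first PTFC or the third PTFC array.

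Markers of several other cell types also differed between the groups, not all in the same way. In bulk liver, fewer cells of a type and less RNA per cell cannot be told apart. Of 10 macrophage markers with a probe (11 listed) 10 rose in HFD24 against ND, 7 in HFD16 and 2 in PTFC. In PTFC against HFD24 1 fell. Of all probes 8.5%, 8.64% and 0.727% were called higher against ND in HFD24, HFD16 and PTFC, and 2.71% lower in PTFC with HFD24. In PTFC with ND 8 of the 10 had an unadjusted p under 0.05 by limma, and 8 had all PTFC arrays above all ND arrays. The summed intensity of the 10 macrophage markers was 148897 to 221999 in HFD24, 85783 to 108545 in PTFC, 54291 to 228639 in HFD16 and 22970 to 56094 in ND, so PTFC lay below HFD24 and above ND. No macrophage marker was at 0 on any array. Tsc22d3 overlapped between PTFC and HFD24 while the macrophage sum was lower in PTFC. The sums of endothelial and of stellate cell markers, like Tsc22d3, were above ND in all 3 high-fat diet groups, though not every marker was. The sum of 7 endothelial markers was 21951 to 32025 in ND, 32368 to 42376 in HFD16, 38937 to 53647 in HFD24 and 39697 to 46584 in PTFC. Against ND 4, 5 and 3 of them rose in those 3 groups (5, 6 and 5 at an unadjusted p under 0.05 by limma). The sum of 9 stellate cell markers was 48126 to 82924 in ND, 93692 to 175870 in HFD16, 117711 to 165454 in HFD24 and 104955 to 158639 in PTFC. Against ND 6, 6 and 1 of them rose (8, 8 and 7 at an unadjusted p under 0.05 by limma). Col1a1 fell against ND, by 0.91 ± 0.22 in HFD24 and 1.10 ± 0.22 in PTFC (limma adjusted p = 0.0132 and 0.0256). In PTFC against HFD24 3 fell, Pdgfrb, Col3a1 and Col1a2. Dcn, at a mean of 16.84 log2 in HFD24, was the brightest in the sum, and Reln followed at 14.06. None of these markers was at 0 on any array. Zbtb16, Tat, Sgk1 and Errfi1 were higher in PTFC than in HFD24, opposite to the macrophage sum. Of the 12 hepatocyte markers none passed by limma in any comparison (1 in PTFC with HFD24, 1 in HFD24 with ND and 0 in the other comparisons at an unadjusted p under 0.05). Of 9 T and NK cell markers with a probe (10 listed), 3 rose in HFD24, 3 in HFD16 and none in PTFC against ND (0 at an unadjusted p under 0.05), and 1 fell in PTFC against HFD24. The 3 were Cd3d, Nkg7 and Thy1 in both diet groups, and Thy1 was the 1 that fell. The summed intensity of the T and NK cell markers was 7626 to 8465 in HFD24, 5160 to 5459 in PTFC, 5571 to 15266 in HFD16 and 4589 to 5246 in ND, with none at 0. Cd3e, the brightest of them, differed from ND by -0.12 ± 0.19 in HFD24, 0.12 ± 0.19 in HFD16 and -0.11 ± 0.19 in PTFC. Of the adipocyte markers, Cidec, a lipid droplet gene, was the bright one and went the same way as Zbtb16 between PTFC and HFD24. The sum of 4 markers with a probe (5 listed) was 29067 to 33119 in PTFC, 15323 to 24277 in HFD24, 4072 to 8342 in HFD16 and 6964 to 10821 in ND, with none at 0. No adipocyte marker passed by limma in PTFC with HFD24 (1, Cidec, at an unadjusted p under 0.05). Cidec gave 0.76 ± 0.23 there (limma adjusted p = 0.069), and Adipoq at 0.61 ± 0.71, Lep at 0.31 ± 0.28 and Plin1 at 0.15 ± 0.29 differed by about their SE or less. The sum of 5 cholangiocyte markers was 3808 to 4074 in ND, 2830 to 3546 in HFD16, 2631 to 3163 in HFD24 and 3011 to 3695 in PTFC. Of these only Cldn7 passed in PTFC against HFD24, higher (log2 0.93 ± 0.16, limma adjusted p = 0.0168). The sum of 7 neutrophil markers was 1549 to 2041 in ND, 1892 to 3574 in HFD16, 3789 to 5421 in HFD24 and 2071 to 2550 in PTFC. Of 4 B cell markers 1 rose and 1 fell in PTFC against HFD24. The part of other cells in the values of the 7 genes was not tested.

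Clock genes were examined because the hormone and several targets follow the day. Of 17, none passed by limma in PTFC with HFD24 or PTFC with ND (1 and 4 at an unadjusted p under 0.05). In PTFC with ND Per2 gave 1.16 ± 0.29 and Npas2 1.10 ± 0.30 (limma adjusted p = 0.0572 and 0.0784). There 4 of the 17 had all PTFC arrays above all ND arrays and 2 all below (9% and 11.6% of all probes). Of all probes 1.75% passed in that comparison, against 16.5% in HFD24 with ND, so a missing call is not a missing difference. Against ND, Npas2 and Per2 rose in HFD24 (log2 1.45 ± 0.30 and 1.19 ± 0.29) and in HFD16 (1.64 ± 0.30 and 1.19 ± 0.29), while Per3 fell (-1.12 ± 0.27 and -1.31 ± 0.27). A dimmer Per3 probe gave 0.74 in HFD24 and 0.60 in HFD16, opposite to the brighter one. Per1, a clock gene that the receptor also induces, fell in HFD16 (log2 -1.52 ± 0.25, limma adjusted p = 0.00316). The call of Per2 was lost without the first or second ND array in both comparisons, and without the third HFD24 or the second HFD16 array in its own. The call of Per3 in HFD24 was lost without the first ND or the first HFD24 array. The part of collection time in the values of the 7 genes was not tested.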

How the data were processed

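Liver RNA of 12 samples was hybridised to single-colour arrays (Trizol extraction, amino-allyl amplification and Cy5 label, per the labels' protocols). The authors deposited 1 intensity per probe on a linear scale, for 26423 probes. The sources do not name the scanner, background correction or scaling that was used. Values below 0, 291 among 317076, were set to 0. The platform table named 1 gene for 21876 probes, none had several, and 4547 were unnamed here. A pseudocount of 1 was added, and log2 values were quantile normalized between arrays and fitted with group means on all 12 arrays (limma 3.58.1, R 4.3.3, trend in the prior variance, no replicate block). A fold on this scale can understate or overstate the change of dim probes, above all of those with values at or set to 0. Every probe was fitted, not 1 per gene. Tests were two-sided, with Benjamini-Hochberg adjustment over all probes. Within-group correlations used all 1296 exact permutations within groups. The fit was tested on simulated data.

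The members and gene lists were chosen with earlier results of these data known. A gene is represented by its probe of highest mean. From each list and comparison the text names up to 3 genes higher and 3 lower of smallest p among those past the test, or up to 2 of smallest p where none passed, and the 5 nearest profiles. Others are said to have been named after their values were seen.

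Other settings were median scaling, the deposited scale, a pseudocount of 32, leaving out the dimmest 25% of probes, 1 probe per gene, no trend, the replicate block and each array left out. Same-numbered arrays of different groups did not deviate together (median r of -0.0554 over 18 pairs, 3 above 0.1), so the numbers do not pair the samples.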

Additional observations from a re-analysis of the deposited data

How the results depend on the processing

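With 3 arrays per group, calls depended on single arrays, and so did the sizes of some of the 7 genes, as given below. Of 775 values recomputed for 41 results, 711 kept their direction and side of the threshold, or stayed within the replicate spread or 1.5 times a count. That number includes differences that could not move, so it is no measure of robustness. A difference stays the same without an array of a group outside the comparison. It also stays the same with no trend, 1 probe per gene, the dimmest probes left out or the replicate block. On the deposited scale the median of all probes shifted by 0.30 for PTFC with HFD24, -0.28 for HFD24 with ND, 0.10 for PTFC with ND and -0.30 for HFD16 with ND, and differences there are relative to it. The share of calls that were higher then went from 53.1% to 92.4%, 51.7% to 35.6%, 41.5% to 67.4% and 52.9% to 28.7%, and under median scaling from 41.5% to 29% for PTFC with ND. For PTFC with HFD24, 1528 probes passed, against 3101 on the deposited scale and 611 under the replicate block, and list genes past the test numbered 8, or 15 on the deposited scale. For PTFC with ND, 463 probes passed, against 255 under median scaling and 289 under the replicate block, and list genes numbered 7, or 4 under median scaling. Under median scaling Nr3c1 differed by -0.44 between PTFC and HFD24, and Tat in HFD16 with ND by -0.77 without a call. With the replicate block Nr3c1 in HFD16 with ND kept 0.62 and lost its call (limma adjusted p = 0.0523), and no other call among the 7 genes was changed by it. Among other named genes, the block ended the calls of Lcn2 in PTFC with HFD24, Lpin1 and Smarca4 in PTFC with ND and Tsc22d4 in HFD24 with ND. The cause was not tested.

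With 1 array left out, probes past the test ran from 8 to 2721 for PTFC with HFD24, 1979 to 6474 for HFD24 with ND, 55 to 663 for PTFC with ND and 1436 to 5895 for HFD16 with ND. List genes ran from 0 to 12, 15 to 31, 1 to 10 and 13 to 29. Of the 7 genes, 0 to 3 passed in HFD16 with ND, 5 to 6 lay above 0 in PTFC with HFD24 and 1 to 2 in HFD24 with ND. In HFD24 with ND Sgk1 ran from -1.13 to -0.69 and Zbtb16 from -1.46 to -0.54, and in PTFC with ND from -0.46 to -0.03 and from 0.96 to 1.88. In HFD16 with ND Nr3c1 ran from 0.48 to 0.70, Tsc22d3 from 0.75 to 1.18, Tat from -1.02 to -0.58 and Sgk1 from -0.79 to -0.36. Errfi1 ran from -0.56 to 0.05 there and changed sign without the third ND array (0.04) or the third HFD16 array (0.05). Where an arm keeps 2 arrays, the fit pools the spread of all groups. Signal over background is unknown, since no detection flag was used.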

Other observations

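Other enzymes of amino acid breakdown and the urea cycle, which the liver also raises under glucocorticoids, were named after their values were seen. Got1, the cytosolic aspartate aminotransferase, fell in HFD16 against ND (log2 -2.52 ± 0.58, limma adjusted p = 0.013). It gave -1.72 ± 0.58 in HFD24 with ND and 0.82 ± 0.58 in PTFC with HFD24, which did not pass (limma adjusted p = 0.0572 and 0.414). Cps1, the first enzyme of the urea cycle, gave 0.65 ± 0.23 in PTFC with HFD24 (limma adjusted p = 0.101). The metallothionein genes Mt1 and Mt2, which glucocorticoids and zinc induce, gave -0.90 ± 0.70 and -1.28 ± 0.82 there, with no call (limma adjusted p = 0.46 for Mt1, 0.366 for Mt2).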
